A study of Mus musculus with 4 samples.

Results

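The genes described here are 40 genes of macrophages and antigen-presenting cells: genes of macrophage identity, leukocyte membrane proteins, genes of resident scavenger macrophages, Fc receptors and their adaptors, complement C1q, MHC class II and phagocyte effectors. They were chosen by name, as the rows of the deposited count table that carry 1 of the 40 symbols, and all 40 were found among 51826 rows. The 4 male mice, of the C57BL6/J background, were about 20 weeks old, sedentary and on standard chow, and the quadriceps RNA of each mouse gave 1 library. The 2 WT mice were compared with 2 Mef2dα2 Eko mice, which lack the α2 exon of the transcription factor gene Mef2d in every cell through a CRISPR-Cas9 deletion carried in the germline. All 4 muscles were harvested within 1 hour, and which of the study's founder lines gave the Mef2dα2 Eko mice is not given in the labels. Whole muscle was used, so a lower level of a macrophage gene cannot be told apart as fewer macrophages or as less of its RNA per macrophage.

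Skeletal muscle holds resident macrophages between its fibres and along its vessels, where they take up debris and dying cells and take part in repair after injury. Their Fc receptors bind antibody-coated targets and signal through small adaptor proteins, and macrophages are a main source of C1q, the recognition unit of the classical complement pathway. Macrophages, dendritic cells and B cells show peptides from engulfed proteins to CD4 T cells on MHC class II, whose assembly needs the invariant chain encoded by Cd74.

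The macrophage and antigen-presenting genes were lower in the Mef2dα2 Eko mice as a group, and they also varied together between the mice of a genotype. Of the 38 genes with enough counts to be tested, 37 had a log2 fold change below 0, against 51.3% of the 16120 genes tested, and their median log2 fold change (Mef2dα2 Eko over WT) was -0.57 against -0.01 over all genes tested. Only Cbr2, the carbonyl reductase used as a mark of resident tissue macrophages, passed an adjusted p of 0.05 in edgeR's quasi-likelihood test, where 0.416% of all genes tested passed in either direction and 0.31% passed as lower. At an unadjusted p below 0.05 there were 18 such genes, all lower in the Mef2dα2 Eko mice, where 11.6% of all genes tested reached that level in either direction and 6.41% as lower. Both Mef2dα2 Eko mice lay below both WT mice for 25 of the 38 genes (23% of all genes tested), both lay above for 0 (20.8%), and the genotypes overlapped for 13. In each genotype 1 mouse was higher for most of the genes: WT replicate 1 exceeded WT replicate 2 for 34 of 38, and Mef2dα2 Eko replicate 1 exceeded replicate 2 for 28 of 38. WT replicate 1 decided much of the size, since without it the median log2 fold change was -0.36 and 34 of the 38 were below 0.

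The libraries held 72626757 to 85176059 expected counts, and a count of 3, taken as the floor of detection, stood for 0.0348 to 0.0419 CPM (counts per 1000000 counts of the library after TMM scaling, the trimmed mean of M-values). WT replicate 1 stood apart from the other libraries: a chi-square comparison of the counts gave 119 to 215 per degree of freedom in the pairs that held it and 35.5 to 42.0 in the other 3 pairs. Values below are therefore also given without WT replicate 1 for some of the genes. They are not given for every gene, nor for the medians of the groups and other lists. Leaving out a mouse also made some differences larger, which is given for some genes only. In this and all later runs of 4 values, the order is WT replicate 1, WT replicate 2, Mef2dα2 Eko replicate 1 and Mef2dα2 Eko replicate 2. The targeted gene Mef2d was at 259, 227, 252 and 241 CPM, with a log2 fold change of 0.02 (edgeR, adjusted p = 0.960), and whole-gene counts cannot show whether its α2 exon is missing. Aif1, a calcium-binding protein of activated macrophages, had 5 or 6 counts in each library, and Cx3cr1, the fractalkine receptor, had 5 to 10. Both were too low to be tested. The smallest p that an exact permutation test, two-sided, can give for 1 gene in 2 against 2 mice is 0.333, so p-values come from the fit across all genes, and they measure the spread between these mice alone.

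Log2 fold changes are given with their standard errors. Among the 9 genes of resident scavenger and perivascular macrophages, all 9 had log2 fold changes below 0, from -1.16 to -0.03 with a median of -0.42. Cbr2 fell: it stood at 1351, 1611, 714 and 615 counts, which is 17.8, 19.9, 8.28 and 8.60 CPM. Both Mef2dα2 Eko mice were well below both WT mice, and within each genotype the 2 mice were close. Its level was 18.9 ± 1.5 CPM in WT and 8.44 ± 0.224 CPM in Mef2dα2 Eko mice (mean ± SD, n = 2), a log2 fold change of -1.16 ± 0.09 (edgeR, adjusted p = 0.0271) that left 44.7% of the WT level. Without WT replicate 1 the log2 fold change was -1.24 (edgeR, adjusted p = 0.0040), and Cbr2 passed under all 13 alternatives. It was put among these genes with its result in these libraries already known. The chemokine Ccl9 stood at 2.32, 2.08, 1.32 and 1.41 CPM, with both Mef2dα2 Eko mice below both WT mice, a log2 fold change of -0.69 ± 0.19 (edgeR, adjusted p = 0.260) and -0.60 without WT replicate 1. Its neighbour in function Ccl6, also a CC chemokine of myeloid cells, stood at 2.28, 2.00, 1.46 and 1.55 CPM with the same order of genotypes (log2 fold change -0.51 ± 0.19, edgeR, adjusted p = 0.377).

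Since Cbr2 is the gene of the set that passed, the bases before its RefSeq start are shown, on the minus strand of GRCm38.p6 at chr11:120732115-120732271, stopping where the longer GENCODE gene model begins. The gene itself covers chr11:120729489-120732114 in that annotation. The letters GAGGAAGT of the macrophage factor PU.1, CTGATTGG of the MHC class II Y box and the MEF2 motif were searched on both strands of 300 bases around each start. None of them is in this window, which says nothing about those factors at Cbr2.
Cbr2: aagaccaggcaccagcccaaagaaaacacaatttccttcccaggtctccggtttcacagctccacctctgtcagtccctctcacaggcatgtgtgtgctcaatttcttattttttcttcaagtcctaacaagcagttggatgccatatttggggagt

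The other resident genes differed less, and their order between mice was not that of Cbr2. Lyve1, a hyaluronan receptor of perivascular macrophages and lymphatic vessels, stood at 3.81, 4.56, 3.17 and 2.91 CPM. It was lower in both Mef2dα2 Eko mice, with WT replicate 2 the highest as for Cbr2 (log2 fold change -0.46 ± 0.15, edgeR, adjusted p = 0.331). Cd163, the haemoglobin scavenger receptor, and Folr2, a folate receptor, also had both Mef2dα2 Eko mice below both WT mice, at log2 fold changes of -0.34 and -0.42. As each mouse was left out, these ranged from -0.46 to -0.22 for Cd163 and from -0.50 to -0.31 for Folr2. For Mrc1 (the mannose receptor), F13a1 (coagulation factor XIII A chain) and Clec10a (a galactose-type lectin) the genotypes overlapped. Mrc1 stood at 7.09, 5.13, 6.43 and 4.36 CPM, so that replicate 1 was the higher mouse in both genotypes. Its log2 fold change was -0.18, but 0.08 without WT replicate 1 and 0.07 without Mef2dα2 Eko replicate 2. The level of Cbr2 divided by the summed level of the other 8 resident genes was 0.546, 0.719, 0.316 and 0.405, which means that Cbr2 was lower in both Mef2dα2 Eko mice relative to the genes of its own group as well. Per kilobase of exon, Cbr2 stood at 10.3 CPM over the 4 mice. The other 8 resident genes stood from 0.399 (Clec10a) to 1.24 (Lyve1). Which cells of the muscle gave the Cbr2 RNA was not tested.

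**Figure D1:**
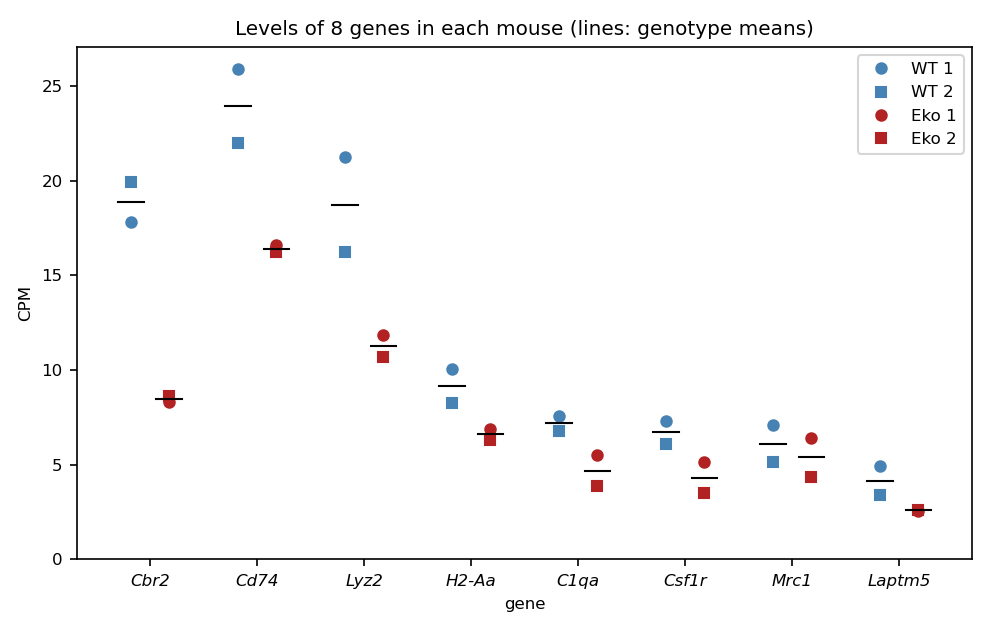
Levels in CPM (vertical axis, from 0) of 8 of the genes in each of the 4 mice, with blue for WT, red for Mef2dα2 Eko mice, circles for replicate 1, squares for replicate 2 and black lines for the mean of each genotype. Cbr2 sits at 17.8 and 19.9 CPM in WT against 8.28 and 8.60 CPM in Mef2dα2 Eko muscle, while the Mrc1 values of the genotypes interleave.

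The 4 MHC class II genes were lower in both Mef2dα2 Eko mice, and all 4 had an unadjusted p below 0.05, though none passed after adjustment in edgeR's quasi-likelihood test (adjusted p from 0.111 to 0.251). Cd74, the invariant chain that escorts class II molecules and fills their groove, stood with Lyz2 and Cbr2 at the top of the 40 genes in level per kilobase of exon. In WT these 3 were level, at 14.3, 14.2 and 14.2 CPM per kb, and in Mef2dα2 Eko mice they stood at 9.78, 8.57 and 6.36 CPM per kb. Cd74 stood at 25.9, 22.0, 16.6 and 16.2 CPM, with a log2 fold change of -0.54 ± 0.10 (edgeR, adjusted p = 0.111) and -0.42 without WT replicate 1. H2-Ab1, the class II A beta chain, stood at 9.17, 8.07, 5.63 and 5.79 CPM (log2 fold change -0.60 ± 0.11, edgeR, adjusted p = 0.124). Both Mef2dα2 Eko mice were nearly level for it, at 66.2% of the WT mean together. H2-Aa, the A alpha chain that pairs with it, stood at 10.1, 8.27, 6.87 and 6.32 CPM, a log2 fold change of -0.47 ± 0.13 (edgeR, adjusted p = 0.251). H2-Eb1, the E beta chain, whose alpha partner C57BL/6 mice do not make, was at 7.33, 6.74, 4.76 and 5.41 CPM with a log2 fold change of -0.47. The summed level of the 4 genes was 52.5, 45.1, 33.9 and 33.7 CPM, and the Mef2dα2 Eko pair differed far less than the WT pair.

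The class II promoters are shown because their genes were lower together. Class II promoters in general share the Y box, an inverted CCAAT sequence bound by the factor NF-Y next to the X boxes, on which the class II transactivator CIITA is assembled. Of the 40 genes, 28 had a promoter in the RefSeq table for GRCm38.p6 (33 promoters). The Y box letters CTGATTGG (or CCAATCAG on the other strand) were found for 2 of these 28, H2-Aa and H2-Eb1. Of all 32851 promoters in the table, 4.1% held them. Genes without a promoter in the table were not searched, so nothing is said about theirs. The windows run up to the base before the start, at chr17:34287824-34288073 on the minus strand for H2-Aa and chr17:34305617-34305866 on the plus strand for H2-Eb1, with the Y box in capitals. It begins 51 bases before the start of H2-Aa and 62 bases before that of H2-Eb1. The window of H2-Eb1 also overlaps the antisense gene Gm20513.
H2-Aa: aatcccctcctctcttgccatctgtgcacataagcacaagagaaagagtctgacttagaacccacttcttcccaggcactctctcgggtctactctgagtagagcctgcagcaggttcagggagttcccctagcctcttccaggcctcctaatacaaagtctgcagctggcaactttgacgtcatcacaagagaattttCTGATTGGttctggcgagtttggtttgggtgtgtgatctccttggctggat
H2-Eb1: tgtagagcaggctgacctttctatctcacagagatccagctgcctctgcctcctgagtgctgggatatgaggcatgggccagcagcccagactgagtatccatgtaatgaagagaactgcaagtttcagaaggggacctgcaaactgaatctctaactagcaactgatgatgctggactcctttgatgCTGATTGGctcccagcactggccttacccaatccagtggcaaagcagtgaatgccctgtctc

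The 3 C1q chains, which join into 1 molecule and whose genes lie side by side on chromosome 4 (C1qa at chr4:136895917-136898803, C1qb at chr4:136880129-136886187 and C1qc at chr4:136889804-136893065, all on the minus strand), gave nearly the same pattern. C1qa stood at 7.56, 6.78, 5.49 and 3.85 CPM, a log2 fold change of -0.62 ± 0.18 (edgeR, adjusted p = 0.280). C1qb stood at 6.77, 5.52, 4.18 and 3.33 CPM, a log2 fold change of -0.71 ± 0.17 (edgeR, adjusted p = 0.199). C1qc stood at 7.52, 6.11, 4.74 and 3.71 CPM, a log2 fold change of -0.69 ± 0.17 (edgeR, adjusted p = 0.219). All 3 chains put the mice in 1 order, WT replicate 1, WT replicate 2, Mef2dα2 Eko replicate 1 and Mef2dα2 Eko replicate 2, an order that 7.21% of all genes tested showed. Without WT replicate 1 their log2 fold changes were -0.53, -0.55 and -0.53, and without Mef2dα2 Eko replicate 2 they were -0.39 for C1qa, -0.56 for C1qb and -0.52 for C1qc.

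The PU.1 letters GAGGAAGT (ACTTCCTC on the other strand) were found for 4 of the 28 genes with a promoter in the table, C1qc, Cd53, Ctss and F13a1. Of all promoters in the table, 3.2% held them. The MEF2 motif was found for Aif1 alone among the 28, where 3.19% of all promoters held it. A match is a description of these letters and not a bound site. The C1qc window is shown, with the match in capitals beginning 195 bases before the RefSeq start. It covers chr4:136893066-136893164 on the minus strand and stops where the longer GENCODE gene model begins.
C1qc: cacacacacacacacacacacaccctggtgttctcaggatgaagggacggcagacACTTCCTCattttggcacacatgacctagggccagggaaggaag

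The 8 tested genes of macrophage identity all had log2 fold changes below 0, from -0.79 to -0.12 with a median of -0.60, and none passed after adjustment (edgeR, adjusted p from 0.302 to 0.908). Csf1r, the receptor for the growth factors CSF1 and IL-34 on which macrophages depend, stood at 7.30, 6.11, 5.12 and 3.47 CPM. The genotypes did not overlap and replicate 1 was the higher mouse in both (log2 fold change -0.64 ± 0.20, edgeR, adjusted p = 0.302). Its log2 fold change was -0.50 without WT replicate 1 and -0.39 without Mef2dα2 Eko replicate 2. Cd68, a lysosomal glycoprotein, stood at 1.62, 1.03, 0.882 and 0.657 CPM (log2 fold change -0.77 ± 0.32, edgeR, adjusted p = 0.419). WT replicate 1 carried much of it, as the value was -0.41 without that mouse. Spi1, which encodes PU.1, stood at 0.975, 0.556, 0.464 and 0.433 CPM, or 74, 45, 40 and 31 counts, so that WT replicate 2 lay nearer to the Mef2dα2 Eko mice than to WT replicate 1. Its log2 fold change was -0.77 ± 0.37 (edgeR, adjusted p = 0.494) and -0.31 without WT replicate 1. Cd14, the co-receptor for bacterial lipopolysaccharide, stood at 0.751, 0.569, 0.464 and 0.294 CPM (log2 fold change -0.79 ± 0.38, edgeR, adjusted p = 0.488, and -0.51 without Mef2dα2 Eko replicate 2). For Adgre1 (the F4/80 antigen), Itgam (the CD11b integrin chain), Ccr2 (the receptor by which monocytes enter tissue) and Ms4a7 the genotypes overlapped. Ccr2 stood at 2.70, 1.38, 1.51 and 1.24 CPM, a log2 fold change of -0.56 that was -0.01 without WT replicate 1. As each mouse was left out, that of Ccr2 ranged from -0.95 to -0.01.

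Of the 5 genes of leukocyte membranes and signalling, Laptm5, a lysosomal membrane protein of blood cells, stood at 4.90, 3.39, 2.56 and 2.59 CPM. Both Mef2dα2 Eko mice were level and below both WT mice (log2 fold change -0.69 ± 0.20, edgeR, adjusted p = 0.283, and -0.39 without WT replicate 1). Itgb2, the beta chain of the leukocyte integrins, stood at 1.29, 0.730, 0.731 and 0.587 CPM, where WT replicate 1 alone was high. Its log2 fold change was -0.61 ± 0.35 (edgeR, adjusted p = 0.559) and -0.14 without WT replicate 1. As each mouse was left out it ranged from -0.95 to -0.14. Cd53, a tetraspanin of leukocytes, stood at 1.21, 0.643, 0.696 and 0.392 CPM, with WT replicate 1 highest, Mef2dα2 Eko replicate 2 lowest and the remaining mice level. Its log2 fold change was -0.76 ± 0.43 (edgeR, adjusted p = 0.553), -0.23 without WT replicate 1 and -0.41 without Mef2dα2 Eko replicate 2. As each mouse was left out it ranged from -1.22 to -0.23. Ptprc, the pan-leukocyte phosphatase CD45, and Cd52, a small leukocyte surface peptide, differed least, at log2 fold changes of -0.17 and -0.05.

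Among the 5 Fc receptor genes, the adaptors gave the largest differences between genotypes. Tyrobp, an adaptor of many myeloid receptors including TREM2, had 58, 47, 38 and 13 counts, which is 0.764, 0.581, 0.441 and 0.182 CPM. Mef2dα2 Eko replicate 2 lay far below the other mice, and the log2 fold change of -1.09 ± 0.47 (edgeR, adjusted p = 0.445) was -0.61 without it. As each mouse was left out, the value for Tyrobp ranged from -1.86 to -0.61. Fcer1g, the gamma chain through which the activating Fc receptors signal, stood at 1.17, 0.878, 0.684 and 0.378 CPM in the same order of mice (log2 fold change -0.93 ± 0.36, edgeR, adjusted p = 0.400). Without Mef2dα2 Eko replicate 2 its value was -0.58, and it ranged from -1.42 to -0.58 as each mouse was left out. Fcgr3, an activating receptor of low affinity, stood at 2.21, 1.43, 1.14 and 1.15 CPM (log2 fold change -0.67 ± 0.26, edgeR, adjusted p = 0.402, and -0.33 without WT replicate 1). Fcgr2b, the inhibitory receptor, stood at 1.87, 1.89, 1.83 and 1.19 CPM, where the last mouse alone was low. Fcgr1, the receptor of high affinity, was the gene above 0, with 20, 20, 13 and 30 counts. Its Mef2dα2 Eko mice lay on either side of the WT mice, and its log2 fold change of 0.14 ± 0.57 (edgeR, adjusted p = 0.949) turned to -0.75 without Mef2dα2 Eko replicate 2 and to -0.07 with limma-voom.

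The 4 phagocyte effectors had log2 fold changes from -0.73 to -0.32. Lyz2, the lysozyme of macrophages and neutrophils, stood at 1613, 1313, 1021 and 766 counts, which is 21.3, 16.2, 11.8 and 10.7 CPM. The genotypes did not overlap and replicate 1 was the higher mouse in both. The log2 fold change was -0.73 ± 0.14 (edgeR, adjusted p = 0.120) and -0.52 without WT replicate 1. Reads of Lyz2 could be shared with its near copy Lyz1, which held 140, 103, 55 and 65 counts. Ctss, the cathepsin that cuts the invariant chain in antigen-presenting cells, stood at 2.87, 1.77, 1.81 and 1.06 CPM, so that WT replicate 2 and Mef2dα2 Eko replicate 1 were level (log2 fold change -0.68 ± 0.33, edgeR, adjusted p = 0.488, -0.29 without WT replicate 1 and -0.36 without Mef2dα2 Eko replicate 2). As each mouse was left out, the value for Ctss ranged from -1.11 to -0.29. Cybb, the catalytic chain of the phagocyte oxidase, stood at 1.67, 1.38, 1.24 and 0.811 CPM (log2 fold change -0.57 ± 0.28, edgeR, adjusted p = 0.492, and -0.30 without Mef2dα2 Eko replicate 2 but -0.90 without Mef2dα2 Eko replicate 1). Mpeg1, the pore-forming perforin-2, had WT replicate 1 at 2.99 CPM and the other mice from 1.68 to 1.89 CPM, and its log2 fold change of -0.32 was 0.15 without WT replicate 1.

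**Figure D2:**
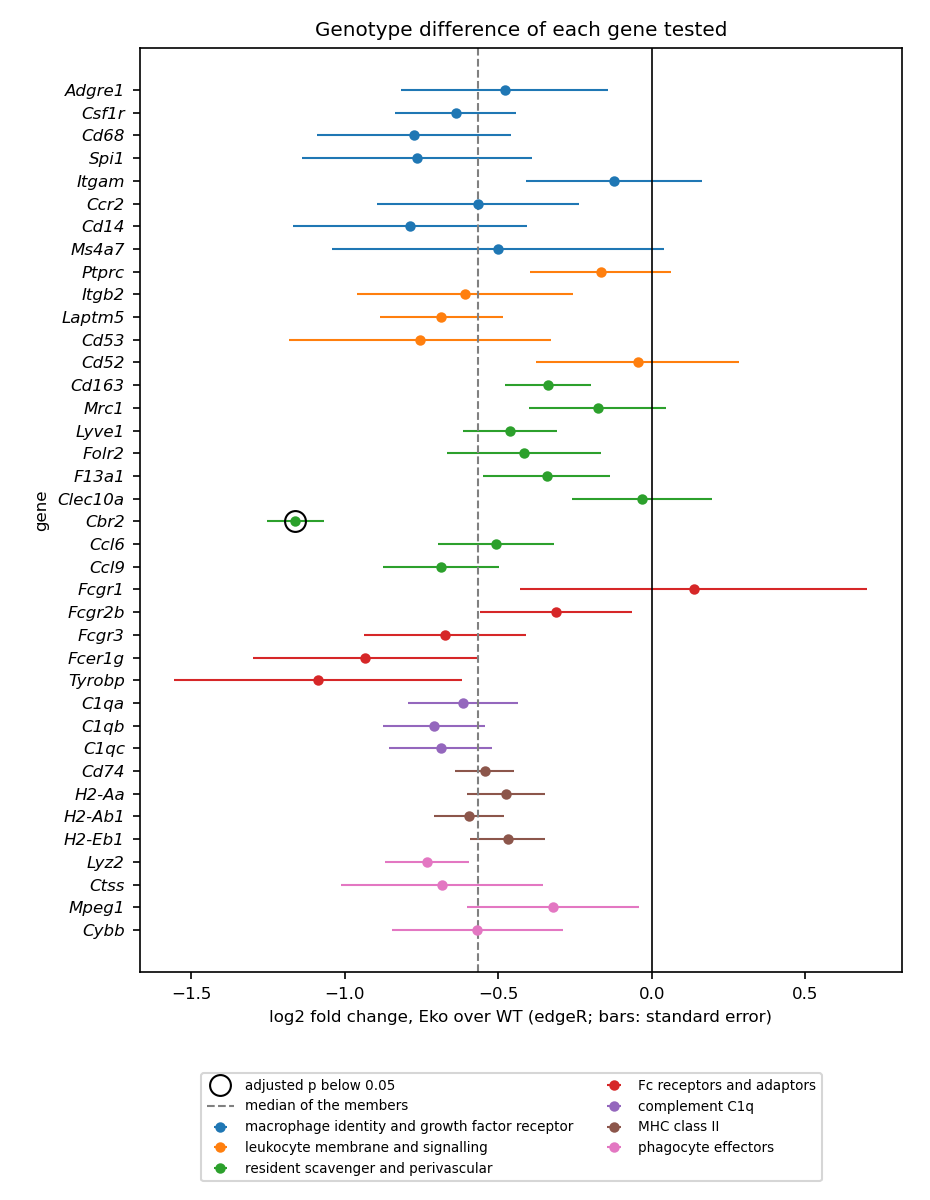
Log2 fold change (Mef2dα2 Eko over WT, horizontal axis) of each of the 38 genes tested (vertical axis), with bars for the standard error from edgeR and colours for the 7 groups. The points lie left of 0 except Fcgr1 at 0.14, the dashed line marks the median of -0.57, and the ring marks Cbr2 at -1.16, where the adjusted p was below 0.05.

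How many genes passed depended on the test. DESeq2 and edgeR's likelihood ratio test each called 6 of the 38, all lower (Cbr2, Cd74, C1qc, Lyz2, C1qb and H2-Ab1), where they called 2.02% and 1.94% of all genes tested, while limma-voom called Cbr2 alone (0.354%). Leaving out WT replicate 2 gave 5 calls (Laptm5, Cbr2, Cd74, Lyz2 and H2-Ab1; 1.79% of all genes), and leaving out Mef2dα2 Eko replicate 1 gave 7 (Csf1r, C1qa, Cbr2, Cd74, C1qc, Lyz2 and C1qb; 1.22%), while without WT replicate 1 (0.591%) or Mef2dα2 Eko replicate 2 (0.745%) Cbr2 alone passed. Cbr2 alone also passed with RLE (0.36% of all genes), upper-quartile (0.397%) and total-count normalization (0.217%) and with a filter of 1 CPM in 2 libraries (0.188%), while 11 of the 40 passed with no filter on low counts (3.25%). Without WT replicate 1, both Mef2dα2 Eko mice lay below WT replicate 2 for 26 of the 38 genes (36.7% of all genes tested) and above it for Mpeg1 and Clec10a (34.2%).

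The genes varied together from mouse to mouse. Within WT, replicate 1 exceeded replicate 2 for 34 of 38 genes (50.8% of all genes tested), with a median difference of 0.28 in log2 CPM. Within the Mef2dα2 Eko mice, replicate 1 exceeded replicate 2 for 28 of 38 (50.4%), with a median difference of 0.27, a count that uses neither WT mouse. Replicate 1 was the higher mouse in both genotypes for 25 of the 38 (28.7% of all genes tested), a count that adds nothing to the separate counts of 34 and 28. The study describes the mice as littermates, but the labels do not say that a shared replicate number marks a shared litter. WT replicate 1 was the highest of the 4 mice for 33 of the 38 genes (28.5% of all genes tested) and WT replicate 2 for 4 (23.6%), and Mef2dα2 Eko replicate 2 was the lowest for 26 (27.7%). Both held for 23 genes (12.5%). The genes put the mice in the order WT replicate 1, WT replicate 2, Mef2dα2 Eko replicate 1, Mef2dα2 Eko replicate 2 in 15 cases, and in 8 more cases Mef2dα2 Eko replicate 1 stood above WT replicate 2 (5.26% of all genes tested).

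**Figure D3:**
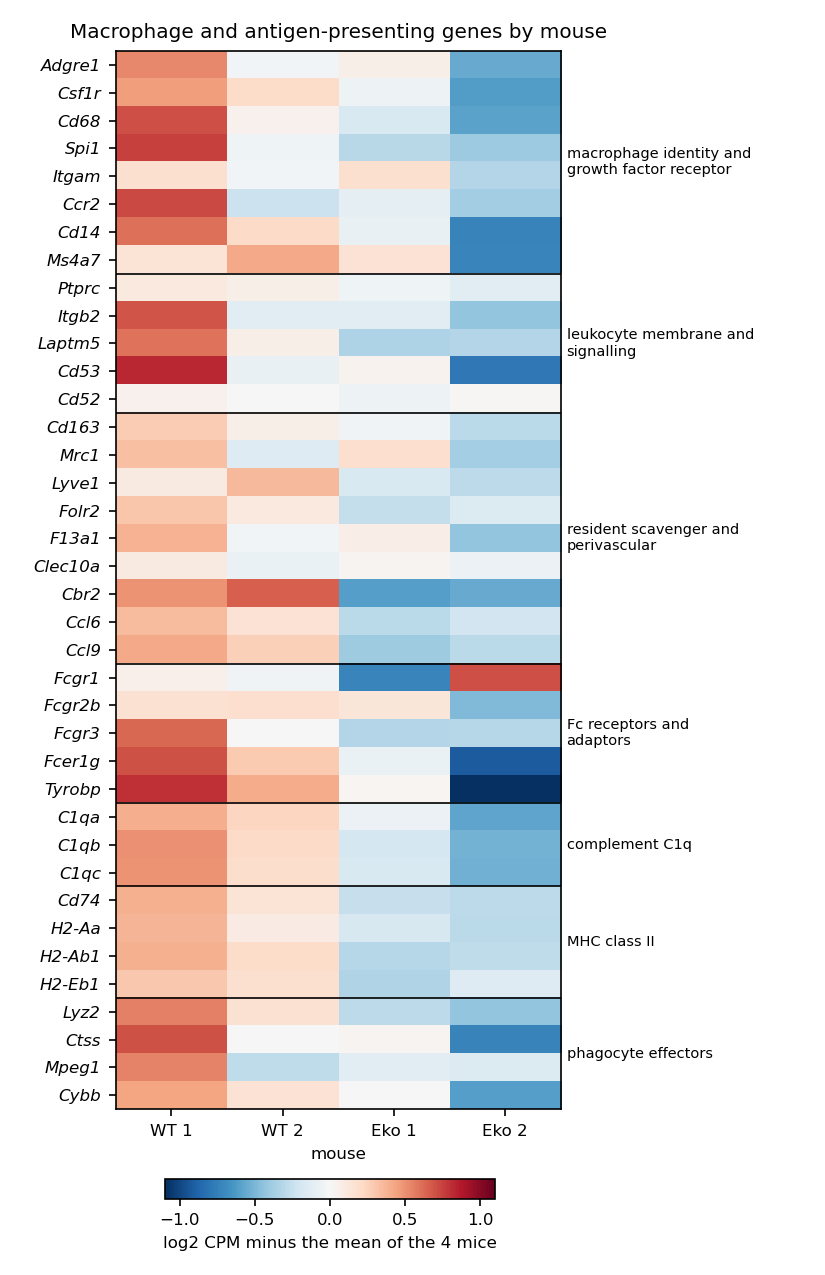
Log2 CPM of each of the 38 genes tested (rows, by group) in each mouse (columns), shown as the difference from the gene's mean over the 4 mice, red above it and blue below. The column of WT replicate 1 is mostly red and that of Mef2dα2 Eko replicate 2 mostly blue, with medians of 0.43 and -0.39, and Fcgr1 is the gene that is strongly red in the last column.

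Counting error set a limit on this. The difference between the WT mice lay beyond the 95% range of counting error for 22 of the 38 genes (39.6% of all genes tested), 20 of them with replicate 1 higher (19.9%). The difference between the Mef2dα2 Eko mice did so for 16 (36%), 15 of them with replicate 1 higher (17.6%). The largest differences within WT were those of Ccr2 (0.96 in log2 CPM), Cd53 (0.91), Mpeg1 (0.83), Itgb2 (0.82) and Spi1 (0.80), and within the Mef2dα2 Eko mice those of Tyrobp (1.25), Ms4a7 (0.88), Fcer1g (0.85) and Cd53 (0.82), leaving aside Fcgr1, which went the other way by 1.44. Among these, the difference of Ms4a7, at 16 against 7 counts, lay within counting error. Cbr2 and Lyve1 went the other way within WT, by -0.16 and -0.26, both beyond counting error.

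Group by group, the counts for the Mef2dα2 Eko mice were not all alike. The macrophage identity genes had Mef2dα2 Eko replicate 1 above replicate 2 in 8 of 8, and C1q in 3 of 3 and the effectors in 4 of 4. The MHC class II genes had it in 2 of 4, with a median difference of 0.00, and none of the 4 differed between these mice beyond counting error. The resident genes had it in 5 of 9, with Cbr2, Ccl6, Ccl9 and Folr2 slightly higher in replicate 2. Whether the groups differ from one another in this was not tested. In summed level, the 40 genes stood at 185, 155, 120 and 105 CPM, and without Cbr2 at 167, 135, 112 and 96.3 CPM, so the order of the mice did not rest on Cbr2.

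**Figure D4:**
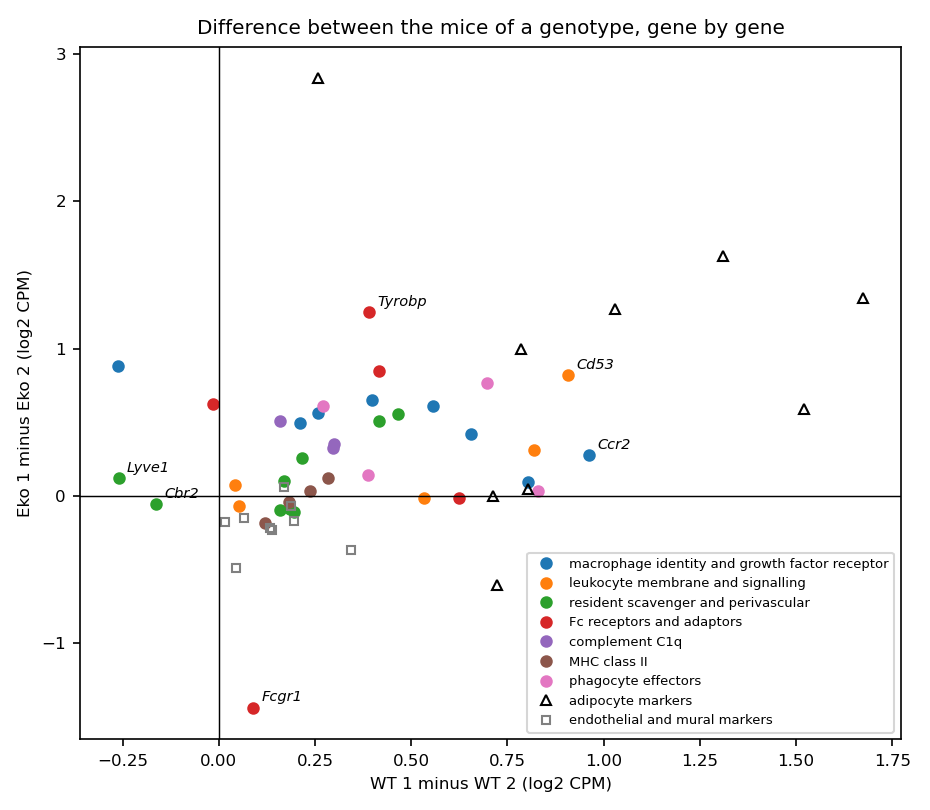
Difference in log2 CPM between the 2 WT mice (horizontal axis) and between the 2 Mef2dα2 Eko mice (vertical axis) for each of the 38 genes (filled circles, coloured by group), adipocyte markers (open triangles) and endothelial and mural markers (open grey squares). In 25 of the 38 genes both differences are above 0, Cbr2 lies left of 0, and Fcgr1 lies low at -1.44.

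The regulators and partners of these genes were followed through lists of their own, in which none of the 163 genes tested passed in edgeR's quasi-likelihood test. At an unadjusted p below 0.05, 28 were lower (6.41% of all genes tested) and 2 higher. DESeq2 called 4 of the 163 (2.02% of all genes), the likelihood ratio test 3 (1.94%) and limma-voom 0 (0.354%). Further macrophage receptors were lower in the Mef2dα2 Eko mice for 15 of 18, with a median log2 fold change of -0.30, among them Stab1, a scavenger receptor, at -0.18, Axl, a receptor for dying cells, at -0.22, and Cd36, which muscle fibres also use to take up fatty acids, at -0.27. Complement genes other than C1q were lower for 11 of 11, with a median of -0.44. WT replicate 1 was the highest mouse for 11 of the 11 (28.5% of all genes tested). Both Mef2dα2 Eko mice lay below both WT mice for 5 of them (23%). Their median deviations were level in WT replicate 2 and Mef2dα2 Eko replicate 1, at -0.01 and -0.03 in log2 CPM. The highest in level was C3, the central component, at 50.8, 42.1, 32.9 and 33.0 CPM (log2 fold change -0.49, edgeR, adjusted p = 0.140). Of the genes for regulation and peptide loading of MHC class II, 3 of 6 were lower with a median of 0.03, and of its factors that bind the X box Rfx5 was at 0.30, Rfxank at -0.15 and Rfxap at 0.00 in log2 fold change. Of the 10 macrophage transcription factors 8 were lower, and Maf, also a gene of muscle fibres, stood at 307, 347, 354 and 373 CPM. The growth factors and chemokines had 7 of 11 lower with a median of -0.10, and Csf1, the main growth factor of macrophages, stood at 8.83, 8.05, 7.91 and 7.82 CPM.

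Markers of other cells followed the same order of mice in part. Adipocyte markers were lower in the Mef2dα2 Eko mice for 7 of 9, with a median log2 fold change of -1.07, and WT replicate 1 exceeded replicate 2 for 9 of 9 and Mef2dα2 Eko replicate 1 exceeded replicate 2 for 8 of 9. Their median deviations from the mean of the 4 mice were 0.95, 0.06, -0.06 and -1.20 in log2 CPM, in the same order of mice as those of the macrophage and antigen-presenting genes (0.43, 0.10, -0.11 and -0.39) and wider. Their summed level ranged from 356 to 618 CPM in WT and from 369 to 525 CPM in Mef2dα2 Eko mice. Most of this was Car3, which muscle fibres also make, and without it, a step taken after its values were seen, the sums were 108, 47.9, 42.1 and 27.0 CPM. None of the 9 was at 0, and Cfd, the adipocyte protease adipsin, which macrophages can also make, stood at 48.5, 16.9, 8.61 and 5.72 CPM. The part of fat tissue in the macrophage result was not tested.

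Markers of other leukocytes were followed in the same way. Of 7 neutrophil markers, S100a8, Ly6g, Cxcr2 and Mpo had at most 3 counts in every library, and the summed level was 0.593, 0.235, 0.186 and 0.112 CPM. Of 9 T and NK cell markers, Cd3d, Cd8a, Ncr1 and Nkg7 had at most 3 counts in every library, with sums of 2.28 to 2.56 CPM in WT and 2.32 to 2.76 CPM in Mef2dα2 Eko mice that came mostly from Cd3e. Of 8 dendritic cell markers none was at 0 in all mice, 4 could be tested, and 1 of these was lower, with sums of 8.18 to 8.38 CPM in WT and 8.36 to 8.71 CPM in Mef2dα2 Eko muscle. The sums that follow are given in that order too. The 7 B cell markers had sums of 133 to 162 and 95.8 to 155 CPM that were almost all Ighm, and none of the 7 was at 0 in all mice. Ighm, the IgM heavy chain, stood at 71.9 CPM per kb over the 4 mice, against 12.0 for Cd74. All 3 B cell markers tested were lower in the Mef2dα2 Eko mice, among them Igkc, an immunoglobulin light chain, with 110, 8, 12 and 6 counts, where WT replicate 1 alone was high (log2 fold change -2.75, edgeR, adjusted p = 0.417). Siglecf and Epx were at 0 in all 4 mice among 9 mast cell and eosinophil markers, of which 4 of 5 tested were lower with a median log2 fold change of -0.58, with sums of 3.60 to 5.44 and 3.08 to 3.63 CPM. WT replicate 1 exceeded replicate 2 for 5 of these 5, and their median deviations of 0.56, -0.05, -0.09 and -0.32 in log2 CPM ran in the same order of mice as those of the macrophage and antigen-presenting genes. Mcpt4, a mast cell protease, stood at 1.12 CPM per kb over the 4 mice, against 0.952 for Csf1r. Erythrocyte markers had 2 of 6 lower and sums of 108 to 109 and 108 to 112 CPM. The part of these cells in the result was not tested.

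**Figure D5:**
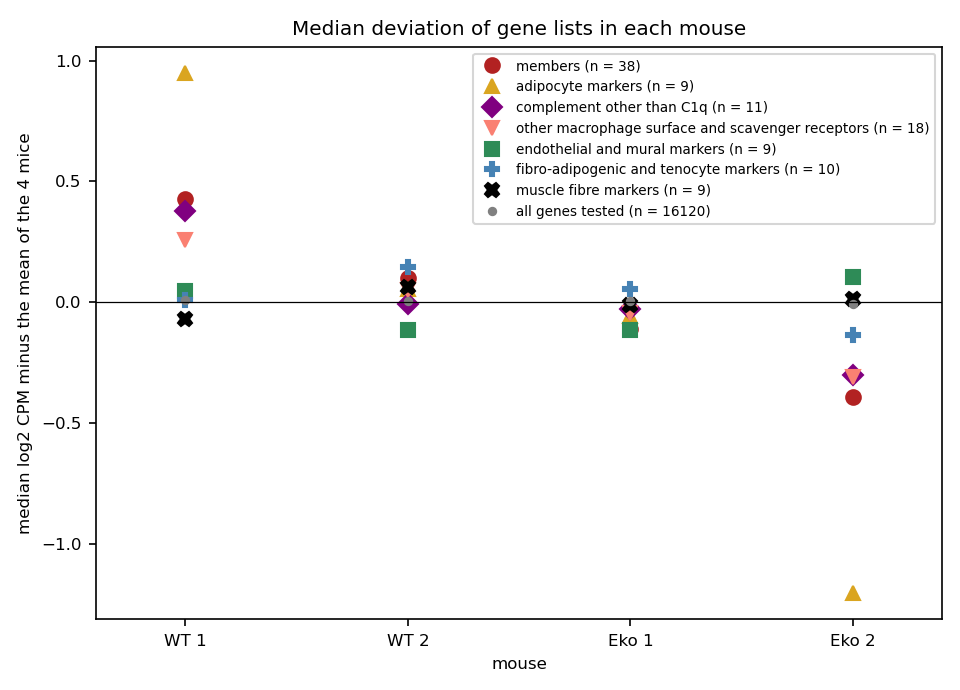
Median deviation in log2 CPM from the mean of the 4 mice (vertical axis) in each mouse (horizontal axis) for the 38 macrophage and antigen-presenting genes, for 6 other lists and for all genes tested. The adipocyte markers run from 0.95 to -1.20, the macrophage and antigen-presenting genes from 0.43 to -0.39, and the muscle fibre markers stay between -0.07 and 0.06.

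Of the 9 endothelial and mural markers 3 were lower in the Mef2dα2 Eko mice, with a median log2 fold change of 0.10. WT replicate 1 exceeded replicate 2 for 9 of 9 of them, but Mef2dα2 Eko replicate 1 exceeded replicate 2 for only 1 of 9, where the macrophage and antigen-presenting genes had 28 of 38. Of the 9 muscle fibre markers 4 were lower, with a median of 0.00. Both Mef2dα2 Eko mice lay below both WT mice for 3 of them (23% of all genes tested) and above for 3 (20.8%). Whether these lists differ from the macrophage and antigen-presenting genes was not tested. Of the 10 markers of fibro-adipogenic cells and tenocytes 6 were lower with a median of -0.06, and Mef2dα2 Eko replicate 1 exceeded replicate 2 for 9 of 10, but WT replicate 1 exceeded replicate 2 for only 2 of 10.

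Of the 40 genes, 8 overlap a gene on the other strand in GENCODE (Ccl6, Cd52, Csf1r, Cx3cr1, F13a1, Fcgr2b, Folr2 and H2-Eb1), and since the strand setting of the counting is not given in the sources used here, their reads and those of the partner may not be separated. Cbr2, the C1q genes, Cd74 and Lyz2 have no such partner.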

How the data were processed

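Quadriceps polyA RNA of 2 WT and 2 Mef2dα2 Eko mice was sequenced as stranded paired-end libraries. Per the methods, the authors aligned reads to mm10 and estimated counts per gene with RSEM and an Ensembl annotation of GRCm38, and the submitters' processing notes name STAR 2.6.1a. The deposited expected counts were not normalized, and the number that were not whole was 0. RSEM divides reads shared by near copies, and a second row named Itgam held no counts. The strand setting of counting is not given in the sources used here.

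Counts of 16120 genes kept by edgeR's default filter, of 24621 with any count, were TMM normalized and entered edgeR 4.0.16 (R 4.3.3), whose quasi-likelihood test had genotype as its 1 term, Benjamini-Hochberg adjustment over all genes and a threshold of 0.05. Log2 CPM per mouse used a prior count of 0.5 and fitted log2 fold changes one of 0.125. Counting intervals are 95% and, like the floor of 3 counts, cover counting error only. Exon lengths and positions came from GENCODE on GRCm38, promoters from RefSeq. The fit was tested on simulated data.

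The genes, the 7 groups and the 20 other lists (206 genes) were chosen with earlier results of these data known, among them that of Cbr2. Named in full are genes that passed, the gene with the highest CPM per kb of each group and the 3 with the largest fold change per group, with the largest differences between mice; of other lists, at most the 3 highest in CPM, and others were named after a look at their values. As alternatives, 13 in all, stood DESeq2 1.42.0, the likelihood ratio test, limma-voom (limma 3.58.1), RLE, upper-quartile and total-count normalization, no filter, a filter of 1 CPM in 2 libraries, a replicate block and leaving out each mouse.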

Additional observations from a re-analysis of the deposited data

How the results depend on the processing

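Cbr2 kept its direction and its side of the threshold under all 13 alternatives, with log2 fold changes from -1.24 to -1.06. The count of macrophage and antigen-presenting genes called, 1 as reported, was 6 with DESeq2, 6 with edgeR's likelihood ratio test, 11 with no filter on low counts and 1 to 7 when a mouse was left out, and all of these calls were lower in Mef2dα2 Eko mice. Genes of the other lists, 0 as reported, came to 4, 3, 20 and 1 to 8 under the same changes. Over all genes, 67 as reported (50 lower, 17 higher), they came to 325 (187 lower, 138 higher), 312 (198 and 114), 799 (496 and 303) and 99 to 299, and to 35 with total-count normalization and 23 with at least 1 CPM in 2 libraries, a filter that kept 27 of the 40 genes and 12241 genes in all. With the replicate number as a block, 5 of the genes (Cbr2, Cd74, C1qc, Lyz2 and C1qb), 5 genes of the other lists and 186 genes in all were called (136 lower, 50 higher). The study calls the mice littermates, but the labels do not say that a number marks a litter, and across genes the differences between replicates 1 and 2 of the genotypes had a correlation of 0.066, so the block was not taken as a pairing. Genes that turned direction were Fcgr1 (-0.068 with limma-voom, and -0.75 to 0.73 as each mouse was left out, below 0 without Mef2dα2 Eko replicate 2), Mrc1 (-0.47 to 0.077, above 0 without WT replicate 1 or Mef2dα2 Eko replicate 2), Clec10a (-0.099 to 0.057, above 0 without the same mice), Mpeg1 (-0.66 to 0.15, above 0 without WT replicate 1), Itgam (-0.38 to 0.099, above 0 without Mef2dα2 Eko replicate 2) and Cd52 (-0.081 to 0.0042, above 0 without Mef2dα2 Eko replicate 1). The median log2 fold change lay between -0.57 and -0.54 under other tests, scalings and filters and between -0.68 and -0.36 with a mouse left out. The cause of these shifts was not tested, except that fewer or more genes entered under the filters. Of 38 genes, those at under about 1 CPM had wide errors, and 2 mice per genotype limit every comparison.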

Other observations

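MHC class I, which all nucleated cells carry, was lower in the Mef2dα2 Eko mice for 7 of 9 genes tested, with a median log2 fold change of -0.09. B2m, its light chain, was at -0.37 (edgeR, adjusted p = 0.365), H2-K1 at -0.24 and H2-D1 at -0.19. WT replicate 1 exceeded replicate 2 for 7 of the 9, but Mef2dα2 Eko replicate 1 exceeded replicate 2 for 2 of the 9. Lysosomal proteases and membrane proteins, which fibres make as well as macrophages, were lower for 9 of 15 with a median of -0.05. The kinases and phosphatases that act below Fc receptors were lower for 8 of 11 with a median of -0.28, among them the kinase Syk at -0.32 and the phosphatase Inpp5d at -0.32, while the kinase Lyn was at 0.18. Interferon response genes were lower for 5 of 7 with a median of -0.26. Satellite cell and regeneration markers were lower for 4 of 7 with a median of -0.09. None of these genes passed in edgeR's quasi-likelihood test after adjustment.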
